A study of Mus musculus with 32 samples.

Results

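Regulatory T cells (Treg) and CD4 T cells of C57Bl6 donor mice were compared before transplantation, at day 0. The comparison holds 4 of the 32 samples of the series, chosen by their labels: 2 Treg libraries and 2 CD4 libraries, each with 1 library of prefix JL019 and 1 of prefix JL027. The study moved such cells into major histocompatibility mismatched Balb/c recipients, a model of graft-versus-host disease, and measured 31 sorted T cell libraries by bulk RNA sequencing, with their T cell receptors (TCR) sequenced as well. All 4 libraries came from pretransplant T cells of spleen and lymph nodes. The series text calls the CD4 cells conventional, while their sample titles say only CD4+, and the sort gates, any reporter allele, age, sex and the pooling of mice are not given in the sources used here. The 2 day 0 CD8 libraries are shown as a reference population. For the genes described at day 0, the same difference is given in Treg-treated recipients, which had the same transplant with Treg given on day 0: 3 Treg and 4 CD4 libraries, at day 6 by their titles and day 8 by the series text. Nothing in the labels says that the 2 libraries of a group came from separate mice. The p-values therefore measure only the spread between libraries within groups, estimated over all 31 libraries unless another model is named.

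Treg are CD4 T cells that hold back immune responses, and their lineage is set by the transcription factor Foxp3. They carry the high-affinity receptor for interleukin 2 (IL-2) at high levels but make little IL-2 themselves. They restrain other cells through inhibitory receptors such as Ctla4, through adenosine made by the surface enzymes Cd39 (Entpd1) and Cd73 (Nt5e), and through cytokines such as Il10. Spleen and lymph nodes hold central Treg, which share homing receptors with naive T cells, beside effector Treg, which carry tissue-homing receptors, Klrg1 and Itgae.

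RNA values are counts normalised between libraries by the authors, called normalised counts here, and the RNA depth is unknown because reads could not be recovered from them. The mean normalised count per gene was 1262 and 1299 in the Treg libraries and 1360.4 and 1279 in the CD4 libraries. Across genes, which are not independent replicates, Pearson's r of log2 values was 0.96 between the 2 Treg libraries, 0.976 between the 2 CD4 libraries and 0.921 to 0.94 between a Treg and a CD4 library. Of 15 T cell marker genes, limma over all 31 libraries called 0 different, 1 having an unadjusted p under 0.05, beside 14.9% of all genes. From the 4 libraries alone 5 were called lower in Treg, beside 1119 of all 16741 genes. Cd4 had 7239 and 9029 in Treg and 14693 and 14778 in CD4 cells. Cd8a, the CD8 coreceptor, was at 59.5 and 28.5 in Treg and 26.3 and 49.9 in CD4 cells, against 23173 and 31914 in CD8 cells. The libraries of prefix JL027 did not share Y-linked transcripts: Ddx3y was at 2498 in Treg JL027, at 10.7 in Treg JL019 and at 0.717 to 12.7 in the CD4 libraries.

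Marker levels of other cell types differed between the sorts. The summed level of 15 B cell and plasma cell markers was 31651 and 34880 in Treg and 74682 and 62521 in CD4 cells. Within that list 2 genes were called lower in Treg, beside 1.34% of all genes, the antibody light chain constant gene Igkc at 686 and 966 in Treg and 23086 and 17606 in CD4 cells and the antibody joining chain Jchain at 232 and 579.8 in Treg and 8789.7 and 7059 in CD4 cells. These 2 genes hold most of the gap between the sums. Of the 15 markers 5 had a positive log2 difference. Both Treg libraries lay above both CD4 libraries for 4 of them and below for 5, near the 30.5% and 29.7% of all genes, and the list's median of -0.42 turned to 0.15 without Treg JL027. The B cell transcription factor Pax5 was at 11.5 and 1.95 in Treg and at 20 and 5.22 in CD4 cells. The summed level of 10 erythroid and platelet markers was 495 and 159 in Treg, 1223 and 531 in CD4 and 30279 and 34293 in CD8 cells. Of 19 myeloid and dendritic cell markers none was called by limma at day 0, 4 reaching an unadjusted p under 0.05, beside that 14.9%. For 12 of the 19 both Treg libraries lay above both CD4 libraries, and for 1 below. Over all genes these shares were 30.5% and 29.7%. A positive log2 difference was seen in 15, and the median was 1.30. Their sums were 6443 and 6294 in Treg and 4539 and 3347 in CD4 cells, and Cd14 was listed at 0 in both CD4 libraries. From the 4 libraries alone 3 were called higher, beside 962 of all 16741 genes. The 8 CD8 T cell markers summed to 3221 and 3425 in Treg, 5885 and 5200.3 in CD4 and 107548 and 143184 in CD8 cells, and 3 of them, Crtam, Gzmk and Eomes, were called lower in Treg, beside 1.34% of all genes. Of the 8, 7 lay lower and 0 higher in both Treg than in both CD4 libraries, beside 29.7% and 30.5% of all genes. The part of such transcripts in the results that follow was not tested. In a bulk library, fewer cells of a type and less RNA per cell cannot be told apart. The calls of Igkc (0.217), Jchain (0.321) and Eomes (0.434) were lost without each of the 4 libraries in turn (highest limma adjusted p of these fits in brackets). Gzmk (0.0715) lost its call without Treg JL027. The call of Jchain was lost without the trend and robust options (0.0511), adjusted p-values being in brackets. That of Gzmk was lost with the prefix as a replicate block in the 4 libraries (0.0827). That of Eomes was lost from the 4 libraries alone (0.0613), with the prefix as a replicate block in the 4 libraries (0.115) and without the trend and robust options (0.0594).

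Across all genes, limma with Benjamini-Hochberg adjustment called 651 of 16741 genes between Treg and CD4 cells at an adjusted p under 0.05. Of these, 426 were higher in Treg, 2.54% of all genes, and 225 were lower, 1.34% of all genes. This balance depended on the model: the numbers were 962 higher and 1119 lower from the 4 libraries alone, and 709 and 890 from the 6 day 0 libraries. List counts given below for those models are to be set beside these numbers out of 16741 genes. An unadjusted p under 0.05 was reached by 9.1% of all genes as higher and by 5.8% as lower. More than 2-fold changes were seen in 406 of the higher and 206 of the lower genes, and more than 8-fold changes in 87 and 92. The median log2 difference over all genes was 0.07. The 2 groups did not overlap in 60.2% of all genes, with both Treg libraries above both CD4 libraries in 30.5% and below them in 29.7%, so a lack of overlap says little for a single gene with 2 libraries a side. The number of calls rested on the libraries: it was 295 without Treg JL019, 300 without Treg JL027, 261 without CD4 JL019 and 302 without CD4 JL027. From the 4 libraries alone, where the other groups do not share in the estimate of the spread, 2081 genes were called. Calls given here are those of the 31-library model unless another is named. Of the 139 genes named, 35 were not called in it, and 14 of these were called from the 4 libraries alone and 19 in at least 1 alternative, so a missing call often rests on the model.

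Foxp3 lay lower in the libraries labelled Treg than in those labelled CD4, while 2 factors that act with it were called higher; the labels are kept as names here. Foxp3 (chrX:7579676-7595243 of GRCm38, the build of all positions here) was at 198 and 442 in Treg and 1145 and 978 in CD4 cells, and at 9.68 and 6.82 in CD8 cells. Both Treg libraries lay below both CD4 libraries, with a log2 difference of -1.84 (SE 0.86, adjusted p 0.309) in limma, which is not a call in the 31-library model. The same difference was called lower from the 4 libraries alone, adjusted p = 0.0256, and from the 6 day 0 libraries, adjusted p = 0.0112, and its adjusted p was 0.0722 when 1 syngeneic CD4 library, of a group not compared here, was left out of the model. Over 17 alternatives its adjusted p ranged from 0.00763 to 0.983, with a negative log2 difference in each. Ikzf2, which encodes Helios (chr1:69531207-69687351), was at 19287 and 14182 in Treg and 1619 and 1769.9 in CD4 cells, a log2 difference of 3.29 (SE 0.47, adjusted p 4.96e-05). It was higher in every Treg library, at day 0 and day 6, than in each of the 26 other libraries. Ikzf4, which encodes Eos, a Foxp3 corepressor, was at 2250.4 and 3204 in Treg and 548 and 368 in CD4 cells, a log2 difference of 2.58 (SE 0.67, adjusted p 0.0251). Without each of the 4 libraries in turn, the call of Ikzf4 (0.226) was lost, the brackets giving the highest limma adjusted p of these fits.

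Of 46 lineage regulators, 9 were called higher and 1 lower in Treg, beside 2.54% and 1.34% of all genes, and their median log2 difference was 0.22. Besides Ikzf2 and Ikzf4, the called genes included Maf, a factor needed for Il10 and for gut Treg, at 2430.2 and 2029 in Treg and 408 and 376 in CD4 cells. Prdm1, which encodes Blimp1, the effector Treg factor, was at 676 and 797 in Treg and 247 and 192 in CD4 cells. Bhlhe40 was at 1306 and 3120.0 in Treg and 268 and 275 in CD4 cells and Nfil3 at 486 and 1671 in Treg and 112 and 130.0 in CD4 cells, and for both the JL027 library was the higher of the 2 Treg libraries. Both are induced by activation in T cells. Hopx, which marks peripherally induced Treg that persist, was at 5074 and 4833 in Treg and 1405 and 1244 in CD4 cells, a log2 difference of 1.90 (SE 0.35, adjusted p 0.00112). Batf, an effector Treg factor, was at 3226 and 3206 in Treg and 1536 and 1219 in CD4 cells, a log2 difference of 1.23 (SE 0.33, adjusted p 0.0302), and Plagl1 at 130.1 and 192 in Treg and 9.79 and 11.7 in CD4 cells. Lef1, a factor of naive T cells, was the 1 member called lower, at 4353 and 5060.0 in Treg and 18692 and 16031 in CD4 cells, a log2 difference of -1.88 (SE 0.38, adjusted p 0.00261). Satb1, the chromatin organiser that Foxp3 represses, was at 5351 and 6878 in Treg and 21732 and 20157 in CD4 cells, below both CD4 libraries, with a log2 difference of -1.79 (SE 0.54, adjusted p 0.0647), which is not a call. From the 4 libraries alone 13 were called higher and 9 lower, and from the 6 day 0 libraries 14 and 8. Those called higher numbered 8, 5, 6 and 6 without Treg JL019, Treg JL027, CD4 JL019 and CD4 JL027 in turn. The call of Batf (0.272) was lost without each of the 4 libraries in turn (highest limma adjusted p of these fits in brackets). Prdm1 (0.069) lost its call without Treg JL027 or CD4 JL027. Nfil3 (0.155) lost its call without Treg JL027 or CD4 JL019. Lef1 (0.0524) lost its call without CD4 JL019. The call of Nfil3 was lost from the 4 libraries alone (0.0566), adjusted p-values being in brackets. That of Batf was lost with median centring (0.111). That of Plagl1 was lost with a pseudocount of 0.1 (0.0613).

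**Figure D1:**
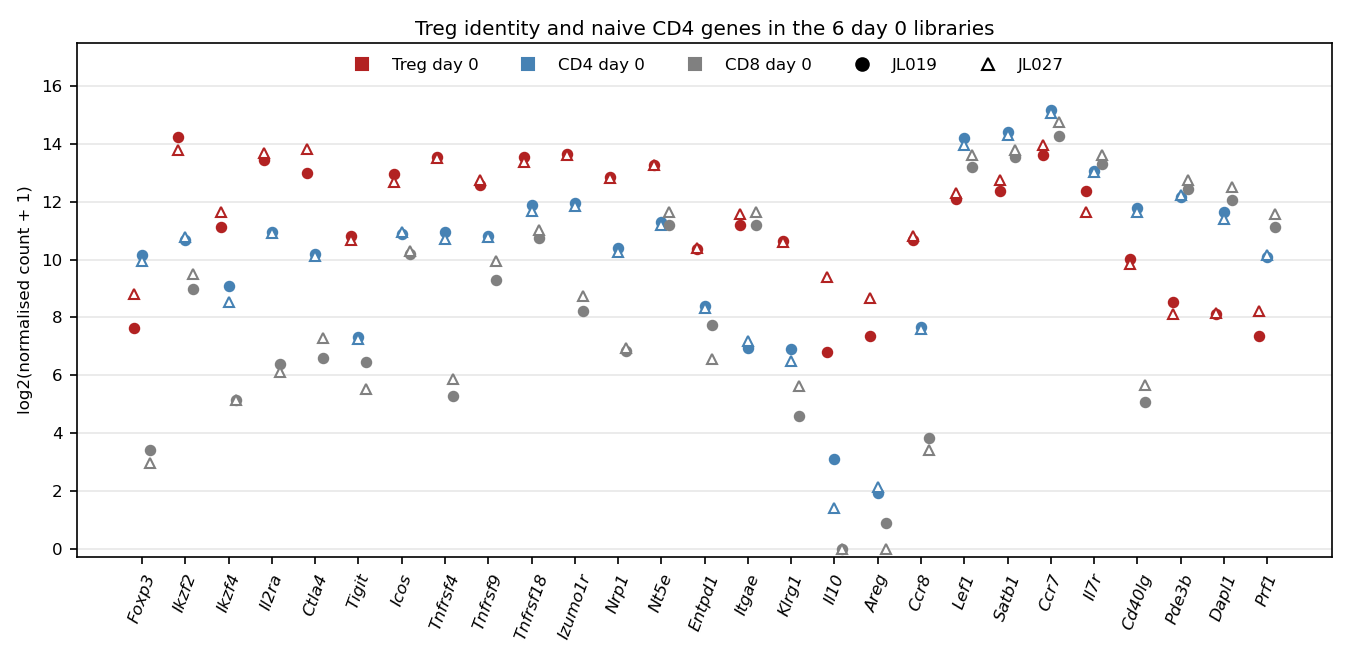
Log2 of the normalised count plus 1 (vertical axis) of 27 genes in the 6 day 0 libraries, each marker being 1 library. Foxp3 lies lower in both Treg libraries than in both CD4 libraries, Ikzf2 to Ccr8 lie higher in Treg and Lef1 to Prf1 lower, and Itgae is as high in CD8 cells as in Treg.

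The IL-2 receptor alpha chain and 2 targets of its signal were higher in Treg than in CD4 cells. Il2ra, which encodes Cd25 (chr2:11642792-11693194), was at 11229 and 13064 in Treg and 1981 and 1923 in CD4 cells, a log2 difference of 2.63 (SE 0.46, adjusted p 0.000667), and at 82.3 and 67.7 in CD8 cells. The beta chain Il2rb was at 17656 and 19440.1 in Treg and 7713 and 6581 in CD4 cells, a log2 difference of 1.38 (SE 0.51, adjusted p 0.152), which is not a call. The common gamma chain Il2rg was at 36724 and 36553 in Treg and 45467 and 40166 in CD4 cells, a log2 difference of -0.22 (SE 0.31, adjusted p 0.777), which is not a call. Socs2, a feedback inhibitor induced by Stat5, was at 1689 and 1316 in Treg and 269.8 and 204 in CD4 cells, a log2 difference of 2.66 (SE 0.33, adjusted p 6.11e-06), and Cish, another, was at 2433 and 3957 in Treg and 1141 and 803 in CD4 cells, a log2 difference of 1.70 (SE 0.48, adjusted p 0.0397). Stat5a and Stat5b, which carry the signal, had log2 differences of 0.55 and -0.16 and were not called. Il7r, the IL-7 receptor that Treg carry at low surface levels, was at 5266 and 3243 in Treg and 8523 and 8355 in CD4 cells, a log2 difference of -1.03 (SE 0.51, adjusted p 0.348). Of the 18 members, 3 were called higher, beside 2.54% of all genes, and none lower by limma, with a median of 0.35. At an unadjusted p under 0.05 the list had 5 higher and 0 lower, beside 9.1% and 5.8% of all genes. The 4 libraries alone gave 5 higher and 3 lower. Without any 1 of the 4 libraries, 2 were called higher. Without each of the 4 libraries in turn, the call of Cish (0.309) was lost, the brackets giving the highest limma adjusted p of these fits. The call of Cish was lost without the trend and robust options (0.0592), adjusted p-values being in brackets.

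Most suppression molecules were called higher in Treg. Of 30 measured members 17 were called higher and 2 lower, beside 2.54% and 1.34% of all genes, with a median log2 difference of 2.09. Ctla4, the inhibitory receptor that removes costimulatory ligands from antigen-presenting cells (chr1:60909025-60915832), was at 8262 and 14415 in Treg and 1179.7 and 1106 in CD4 cells, a log2 difference of 3.25 (SE 0.57, adjusted p 0.000734). Tigit, which binds the poliovirus receptor, was at 1814 and 1641 in Treg and 159.7 and 151 in CD4 cells, a log2 difference of 3.47 (SE 0.39, adjusted p 1.47e-06). Lag3 was at 246 and 322 in Treg and 36.3 and 36.1 in CD4 cells and Havcr2, which encodes Tim-3, at 125 and 141 in Treg and 6.51 and 19.1 in CD4 cells. Both are inhibitory receptors of activated T cells. The adenosine-forming enzymes were both called: Entpd1 was at 1323 and 1343 in Treg and 338 and 318 in CD4 cells and Nt5e at 9977 and 9932 in Treg and 2521 and 2375 in CD4 cells, with a log2 difference of 2.02 for each. Nt5e (0.154) lost its call without each of the 4 libraries in turn, with the highest limma adjusted p of these fits in brackets.

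Among secreted suppressors, Il10 (chr1:131019845-131024970) was at 111 and 669 in Treg and 7.5 and 1.68 in CD4 cells, a log2 difference of 5.85 (SE 0.61, adjusted p 4.51e-07), and was listed at 0 in both CD8 libraries. Areg, a tissue-repair growth factor, was at 165 and 407 in Treg and 2.81 and 3.35 in CD4 cells, a log2 difference of 5.995 (SE 0.73, adjusted p 5.29e-06). In both genes Treg JL027 was the higher Treg library. Ebi3, a subunit of IL-35, was at 465 and 441 in Treg and 67.5 and 77.1 in CD4 cells, and Fgl2, a secreted inhibitor of immune cells, at 1297 and 1272 in Treg and 239 and 223 in CD4 cells. Penk, which encodes the opioid precursor proenkephalin, was at 3109 and 2510.1 in Treg and 508 and 428 in CD4 cells. Itgb8 and Itgav, whose integrin frees active TGF-beta, were at 1213 and 904 in Treg and 71.6 and 124 in CD4 cells and at 1767 and 2830.4 in Treg and 635 and 730.0 in CD4 cells. Lrrc32, which encodes Garp, the docking receptor for latent TGF-beta, was at 3171 and 4363 in Treg and 946 and 802 in CD4 cells, a log2 difference of 2.09 (SE 0.95, adjusted p 0.288), which is not a call at day 0. Tgfb1 itself had a log2 difference of 0.02. Il1r2, the decoy receptor for IL-1 (chr1:40084692-40125230), was at 2360.2 and 1894 in Treg and 89 and 67.9 in CD4 cells, a log2 difference of 4.75 (SE 0.60, adjusted p 9.43e-06). Nrp1, a semaphorin receptor used to mark thymic Treg, was at 7417 and 7167 in Treg and 1354 and 1221 in CD4 cells, a log2 difference of 2.50 (SE 0.26, adjusted p 5.35e-07). The 2 members called lower were Prf1, which encodes the pore-forming perforin of killer cells, at 162 and 298 in Treg and 1098 and 1155 in CD4 cells, and Sema4a, a ligand of Nrp1, at 581 and 982 in Treg and 3575 and 3294 in CD4 cells. Without any 1 of the 4 libraries, 13 were called higher. Without each of the 4 libraries in turn, the calls of Ebi3 (0.0918) and Itgb8 (0.211) were lost, the brackets giving the highest limma adjusted p of these fits. Sema4a (0.235) lost its call without Treg JL019, CD4 JL019 or CD4 JL027. The call of Itgb8 was lost with a pseudocount of 0.1 (0.169) and from the 6 day 0 libraries (0.145), adjusted p-values being in brackets.

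The TNF receptor and CD28 family list had 8 of 24 members called higher, beside 2.54% of all genes, and none called lower by limma. These 8 include the inhibitory receptor Ctla4, described above, and Traf1, which is not a receptor. An unadjusted p under 0.05 was reached by 11 higher and 2 lower, beside 9.1% and 5.8% of all genes, and the median was 0.55. Tnfrsf4, which encodes Ox40, was at 12021 and 11619.7 in Treg and 1995 and 1666 in CD4 cells, a log2 difference of 2.70 (SE 0.46, adjusted p 0.000497). Tnfrsf9, which encodes 4-1BB, was at 6163 and 6895 in Treg and 1796 and 1747 in CD4 cells, a log2 difference of 1.88 (SE 0.36, adjusted p 0.00185), and Tnfrsf18, which encodes Gitr, at 12046 and 10656 in Treg and 3775 and 3322 in CD4 cells, a log2 difference of 1.68 (SE 0.38, adjusted p 0.00887). All 3 are receptors that TCR signals induce. Icos was at 7881 and 6576 in Treg and 1874 and 1977 in CD4 cells and the maturation marker Cd83 at 7755 and 6832 in Treg and 1017 and 788 in CD4 cells, a log2 difference of 3.02 (SE 0.44, adjusted p 6.4e-05). Traf1, an adaptor of these receptors, was at 6373 and 9973 in Treg and 3545 and 3352 in CD4 cells and Tnfrsf26 at 1759 and 1327 in Treg and 468 and 366 in CD4 cells. Cd28 and Cd27 were not called, with log2 differences of 0.0066 and -0.1. Cd40lg, the helper ligand for B cells and dendritic cells, was at 1048 and 929.7 in Treg and 3530.3 and 3204 in CD4 cells, a log2 difference of -1.77 (SE 0.52, adjusted p 0.0518), which is not a call, though it was called lower in 8 of 17 alternatives, with adjusted p-values from 0.000174 to 0.298. The list had 12 higher and 2 lower calls from the 4 libraries alone. The number called higher was 5 without Treg JL019, 6 without Treg JL027 and 4 without either CD4 library. Tnfrsf18 (0.102) lost its call without each of the 4 libraries in turn, with the highest limma adjusted p of these fits in brackets. Icos (0.0957) and Tnfrsf26 (0.141) lost their calls without Treg JL019, CD4 JL019 or CD4 JL027. Traf1 (0.237) lost its call without Treg JL027, CD4 JL019 or CD4 JL027.

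Other Treg surface and signature genes were called higher in 22 of 35 measured members, beside 2.54% of all genes, and none was called lower by limma. At an unadjusted p under 0.05 there were 27 higher and 0 lower, beside 9.1% and 5.8% of all genes. Their median log2 difference was 1.75. Itgae, the alpha E integrin that binds E-cadherin (chr11:73090505-73147449), was at 2327 and 3091 in Treg and 122 and 144 in CD4 cells, a log2 difference of 4.33 (SE 0.49, adjusted p 1.81e-06), with 2337 and 3212 in CD8 cells, which also carry this integrin. Klrg1, the receptor of effector Treg that also binds cadherins, was at 1610.1 and 1555 in Treg and 119 and 89.4 in CD4 cells, a log2 difference of 3.93 (SE 0.50, adjusted p 1.06e-05). Izumo1r, the folate receptor 4, was at 12836 and 12720.5 in Treg and 3936 and 3659 in CD4 cells, a log2 difference of 1.75 (SE 0.38, adjusted p 0.00618). Il1rl1, the receptor for IL-33, was at 736 and 766 in Treg and 58 and 70.8 in CD4 cells, a log2 difference of 3.53 (SE 0.49, adjusted p 3.78e-05). Rgs1, which dampens chemokine receptor signals, was at 13699 and 17199.9 in Treg and 1216 and 1215 in CD4 cells, a log2 difference of 3.66 (SE 0.36, adjusted p 1.7e-07), and Rgs16 at 833 and 2209 in Treg and 91.5 and 84.1 in CD4 cells. Cd38, a NAD-consuming ectoenzyme, was at 1303 and 1153 in Treg and 270.1 and 302 in CD4 cells, a log2 difference of 2.10 (SE 0.24, adjusted p 2.21e-06). The actin-capping gene Capg was at 10166 and 10880.3 in Treg and 2899.9 and 2485 in CD4 cells, Swap70 at 2399 and 2480.5 in Treg and 627 and 731 in CD4 cells and Myo1e at 1394 and 1674 in Treg and 299 and 248 in CD4 cells. Dusp4, a phosphatase of activated kinases, was at 369 and 1086 in Treg and 63.4 and 44.1 in CD4 cells. Gpr83 was at 3632 and 3742 in Treg and 1299 and 1101 in CD4 cells, a log2 difference of 1.62 (SE 0.70, adjusted p 0.255), and was not called although both Treg libraries lay above both CD4 libraries. The 4 libraries alone gave 27 higher and 1 lower. Calls of higher members numbered 14, 10, 14 and 11 without Treg JL019, Treg JL027, CD4 JL019 and CD4 JL027 in turn. Without each of the 4 libraries in turn, the calls of Izumo1r (0.07) and Myo1e (0.158) were lost, the brackets giving the highest limma adjusted p of these fits. Capg (0.0702) and Dusp4 (0.104) lost their calls without Treg JL027 or CD4 JL027. Rgs16 (0.0715) lost its call without Treg JL027.

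Receptors that guide T cells to tissues were among the genes called higher. Of 32 chemokine receptors and adhesion genes, 7 were called higher and 1 lower, beside 2.54% and 1.34% of all genes, with a median of 0.61. Ccr8, the receptor of skin and effector Treg, was at 1632 and 1817 in Treg and 204 and 194 in CD4 cells, a log2 difference of 3.11 (SE 0.55, adjusted p 0.000758). Ccr4, another skin-homing receptor, was at 1140.1 and 1106 in Treg and 208 and 204 in CD4 cells, and Gpr15, which directs T cells to the colon, was at 1349 and 1043 in Treg and 179.5 and 152 in CD4 cells. Ccr2 was at 1662 and 1534 in Treg and 589 and 550.2 in CD4 cells and Icam1 at 1952 and 2493 in Treg and 984 and 874 in CD4 cells, a log2 difference of 1.25 (SE 0.36, adjusted p 0.0483). Ccr3, the eotaxin receptor, was at 152 and 117 in Treg and 0 and 2.49 in CD4 cells, a log2 difference of 6.17 (SE 0.57, adjusted p 4.67e-08), the lowest p among the higher genes of the naming rule, which leaves out predicted, receptor segment and ribosomal protein genes. Ccr3 is also 1 of the 14 basophil, mast cell and eosinophil markers, which summed to 603 and 411 in Treg and to 989.7 and 598 in CD4 cells, so that the groups overlapped. Of the 14, 5 had a positive log2 difference. Both Treg libraries lay above both CD4 libraries for 2, Ccr3 and Hdc, and below for 7, beside 30.5% and 29.7% of all genes. The granule genes Mcpt8 and Prss34 were at 2.04 and 0 in Treg and 29.2 and 21.2 in CD4 cells and at 1.98 and 0 in Treg and 27.2 and 7.54 in CD4 cells, and the part of such cells in the Ccr3 level was not tested. Cxcr6 was the 1 member called lower, at 731 and 719.7 in Treg and 4175 and 3761 in CD4 cells, a log2 difference of -2.45 (SE 0.28, adjusted p 2.69e-06), with 7925 and 10505 in CD8 cells. Ccr7, a chemokine receptor that admits T cells to lymph nodes, was at 12569.5 and 16001 in Treg and 36622 and 34189.6 in CD4 cells, a log2 difference of -1.32 (SE 0.55, adjusted p 0.224). It was not called in the 31-library model but was called lower in 4 of 17 alternatives, with adjusted p-values from 0.00121 to 0.759. From the 4 libraries alone 13 members were called higher and 6 lower, and from the 6 day 0 libraries 10 and 5. The number called higher was 5 without Treg JL019 and 4 without each of the other 3 libraries in turn. The calls of Ccr4 (0.075), Ccr2 (0.121) and Icam1 (0.277) were lost without each of the 4 libraries in turn (highest limma adjusted p of these fits in brackets). The call of Icam1 was lost with the prefix as a replicate block in all 31 libraries (0.0542) and without the trend and robust options (0.0681), adjusted p-values being in brackets.

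Of the genes of naive conventional CD4 cells, the called ones were all lower in Treg, with 0 of 37 members called higher and 6 called lower, beside 1.34% of all genes, and a median of -0.95. Pde3b, a cyclic nucleotide phosphodiesterase that Foxp3 represses, was at 365 and 278 in Treg and 4569 and 4863 in CD4 cells, a log2 difference of -3.88 (SE 0.83, adjusted p 0.00484). Dapl1 was at 278 and 284 in Treg and 3226 and 2689.5 in CD4 cells, a log2 difference of -3.39 (SE 0.49, adjusted p 6.4e-05), and Rflnb at 974 and 925 in Treg and 4696 and 4217 in CD4 cells, a log2 difference of -2.23 (SE 0.28, adjusted p 6.49e-06). Igfbp4, an insulin-like growth factor binding protein, was at 2486 and 3846 in Treg and 15916 and 14214 in CD4 cells, and Atp1b1, a sodium pump subunit, at 551 and 679.9 in Treg and 2463 and 2595 in CD4 cells. Lef1 is the sixth gene. Tcf7, the partner of Lef1, was at 8306 and 10618 in Treg and 33054 and 29899 in CD4 cells, a log2 difference of -1.74 (SE 0.65, adjusted p 0.155), which is not a call, and the groups did not overlap. Altogether 28 of the 37 members had both Treg libraries below both CD4 libraries, beside 29.7% of all genes. The count depended on the model: 22 members were called lower from the 4 libraries alone, and 14 when that syngeneic CD4 library was left out. The number was 2 without CD4 JL019 and 4 without each of the other 3 libraries in turn. Without each of the 4 libraries in turn, the call of Atp1b1 (0.201) was lost, the brackets giving the highest limma adjusted p of these fits. Pde3b (0.0639) lost its call without Treg JL027, CD4 JL019 or CD4 JL027. Igfbp4 (0.125) lost its call without Treg JL019 or CD4 JL019.

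**Figure D2:**
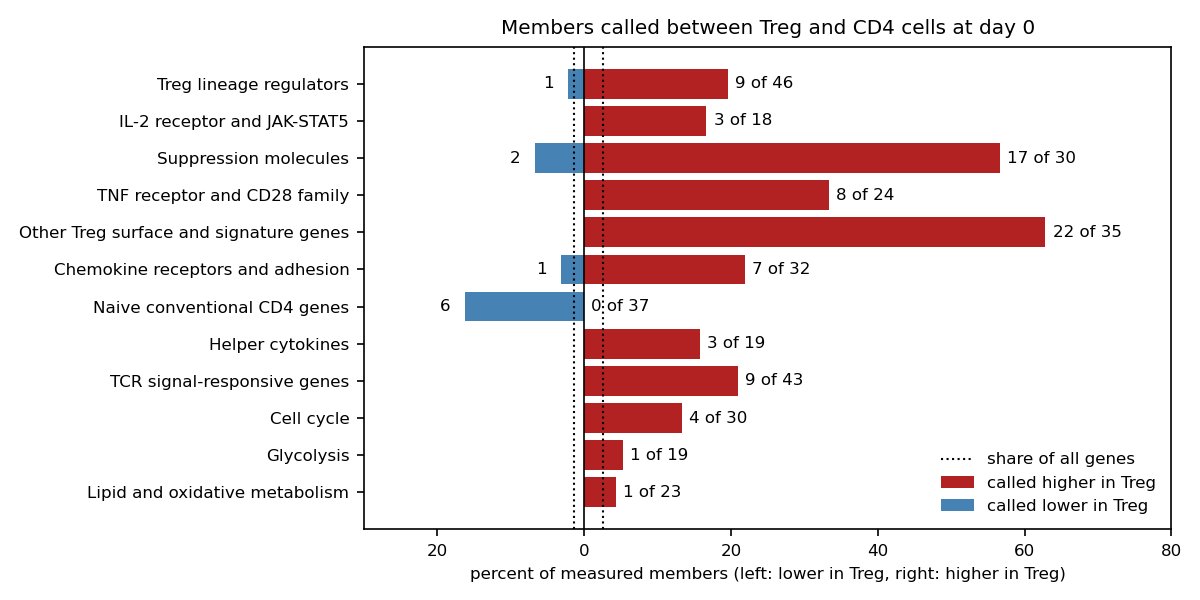
Share of the measured members of 12 gene lists (horizontal axis, percent) that limma called between Treg and CD4 cells at day 0, with the counts as text and the share of all genes as dotted lines. Other Treg surface and signature genes (22 of 35) and suppression molecules (17 of 30) hold the largest shares, and the naive list is the 1 with more lower than higher calls in the 31-library model.

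Of 43 TCR signal-responsive genes, several differed between the 2 Treg libraries. Of these 43 members 9 were called higher, beside 2.54% of all genes, and none lower by limma, and the median was 0.95. At an unadjusted p under 0.05 the list had 20 higher and 0 lower, beside 9.1% and 5.8% of all genes. Gem, a small GTPase induced by activation, was at 920.0 and 1738 in Treg and 134 and 114 in CD4 cells, a log2 difference of 3.34 (SE 0.31, adjusted p 7.09e-08), and Spry1, a feedback inhibitor of receptor kinases, at 1015 and 2352 in Treg and 279 and 254 in CD4 cells. The orphan receptors Nr4a2 and Nr4a3, induced by TCR signals, were at 231 and 974 in Treg and 71 and 23.5 in CD4 cells and at 216 and 912 in Treg and 62.6 and 77.1 in CD4 cells. The anti-apoptotic genes Bcl2a1b and Bcl2a1d were at 2766 and 2495 in Treg and 922 and 792 in CD4 cells and at 904 and 758 in Treg and 272 and 272 in CD4 cells, and reads of these near-identical copies may be split between them. Immediate early genes were higher in Treg JL027 than in Treg JL019: Fos was at 15773 and 42833 in Treg and 3915 and 3522 in CD4 cells, Junb at 16488 and 48321 in Treg and 12638 and 11249 in CD4 cells, Dusp1 at 10662 and 37513 in Treg and 2766 and 2500.4 in CD4 cells and Tnfaip3 at 3485 and 25966 in Treg and 2126 and 1784 in CD4 cells. Nr4a1 was at 1395 and 7728 in Treg and 1424 and 1230.1 in CD4 cells, with Treg JL019 between the 2 CD4 libraries. None of these 5 was called. The 4 libraries alone gave 12 higher and 0 lower calls. Without Treg JL027 1 member was called higher, and without CD4 JL027 1, against 8 without Treg JL019 and 4 without CD4 JL019. The calls of Bcl2a1b (0.165) and Bcl2a1d (0.235) were lost without each of the 4 libraries in turn (highest limma adjusted p of these fits in brackets). Nr4a3 (0.281) lost its call without Treg JL027, CD4 JL019 or CD4 JL027. Spry1 (0.149) and Nr4a2 (0.158) lost their calls without Treg JL027 or CD4 JL027. The call of Nr4a2 was lost from the 4 libraries alone (0.096) and with the prefix as a replicate block in the 4 libraries (0.251), adjusted p-values being in brackets. That of Nr4a3 was lost from the 4 libraries alone (0.0842) and from the 6 day 0 libraries (0.0965). That of Bcl2a1b was lost with median centring (0.0728). That of Bcl2a1d was lost with median centring (0.0941).

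Of the helper cytokines, Il10 and 2 chemokines were called. Il2, the growth factor of Treg, was at 2.97 and 4.65 in Treg and 22.5 and 27.7 in CD4 cells, a log2 difference of -2.45 (SE 0.75, adjusted p 0.0646), which is not a call. Il4 was at 27 and 29.6 in Treg and 38.9 and 30.5 in CD4 cells and Il21 at 71.1 and 59.5 in Treg and 58.1 and 32.6 in CD4 cells. Of 19 measured members 3 were called higher, Il10 and the chemokines Ccl3, at 24.6 and 82.1 in Treg and 3.76 and 9.28 in CD4 cells, and Ccl4, at 66.9 and 89.6 in Treg and 23.6 and 18.6 in CD4 cells, beside 2.54% of all genes, and none was called lower by limma. With 5 higher and 2 lower at an unadjusted p under 0.05, the list stood beside 9.1% and 5.8% of all genes. Ifng was at 141 and 351 in Treg and 80.1 and 103 in CD4 cells, a log2 difference of 1.28 (SE 0.42, adjusted p 0.092), and its adjusted p was 0.0266 without Treg JL019. The 4 libraries alone gave 4 higher and 1 lower. The number called higher was 3 without Treg JL019, 1 without Treg JL027, 1 without CD4 JL019 and 2 without CD4 JL027. Without each of the 4 libraries in turn, the call of Ccl4 (0.161) was lost, the brackets giving the highest limma adjusted p of these fits. Ccl3 (0.237) lost its call without Treg JL027 or CD4 JL019. The call of Ccl3 was lost from the 4 libraries alone (0.0576) and with the prefix as a replicate block in the 4 libraries (0.0708), adjusted p-values being in brackets. That of Ccl4 was lost with the prefix as a replicate block in the 4 libraries (0.104) and with median centring (0.05004).

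Cell cycle genes were called higher in 4 of 30 members, beside 2.54% of all genes, with a median of 0.57, and none was called lower by limma. An unadjusted p under 0.05 was reached by 13 higher and 0 lower, beside 9.1% and 5.8% of all genes. Top2a, the topoisomerase of dividing cells, was at 2013 and 1854 in Treg and 767 and 658 in CD4 cells, a log2 difference of 1.44 (SE 0.23, adjusted p 0.000258), and the proliferation marker Mki67 at 902 and 872 in Treg and 309 and 330.1 in CD4 cells, a log2 difference of 1.47 (SE 0.34, adjusted p 0.0108). The other 2 were Nusap1, at 524 and 724 in Treg and 227 and 226 in CD4 cells, and Bub1, at 167 and 182 in Treg and 44.7 and 78.1 in CD4 cells. In CD8 libraries Top2a was at 2578 and 2327. The replication licensing genes Mcm2 and Mcm5 were not called, with log2 differences of -0.5 and -0.24. In metabolism 1 of 19 glycolysis genes was called higher, the hexokinase Hk2 at 133 and 156 in Treg and 25.6 and 38.3 in CD4 cells, a log2 difference of 2.16 (SE 0.57, adjusted p 0.0249), and 1 of 23 lipid and oxidative genes, the fatty acid binding protein Fabp5 at 930.2 and 878 in Treg and 293 and 246 in CD4 cells, a log2 difference of 1.75 (SE 0.48, adjusted p 0.0341). None of either list was called lower in the 31-library model of limma, with 3 higher and 2 lower of the first and 1 higher and 4 lower of the second at an unadjusted p under 0.05, beside 9.1% and 5.8% of all genes. With 1 gene each, these shares of calls, 5.26% and 4.35%, are near the 2.54% of all genes called higher and are not read as a result about either list. From the 4 libraries alone 5 glycolysis genes were called higher and 2 lower, and 1 lipid and oxidative gene higher and 7 lower, while cell cycle genes had 7 and 1. That model called 962 of all 16741 genes higher and 1119 lower. Neither list kept a call without any 1 of the 4 libraries, and cell cycle calls were 3, 2, 2 and 3 without Treg JL019, Treg JL027, CD4 JL019 and CD4 JL027 in turn. Mki67 (0.108), Hk2 (0.271) and Fabp5 (0.231) lost their calls without each of the 4 libraries in turn, with the highest limma adjusted p of these fits in brackets. Bub1 (0.276) lost its call without Treg JL019, Treg JL027 or CD4 JL019. Nusap1 (0.0951) lost its call without Treg JL027. The call of Bub1 was lost with the prefix as a replicate block in the 4 libraries (0.0569), adjusted p-values being in brackets. That of Fabp5 was lost with median centring (0.0866) and without the trend and robust options (0.052).

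Outside the lists, the lowest p-values among the higher genes included the following. Serpina3g, a serpin that inhibits lysosomal cathepsins, was at 4856 and 5029 in Treg and 699.7 and 909 in CD4 cells, a log2 difference of 2.63 (SE 0.26, adjusted p 1.48e-07). Ptger2, a prostaglandin E2 receptor, was at 1436 and 2051 in Treg and 405 and 382 in CD4 cells, a log2 difference of 2.12 (SE 0.25, adjusted p 4.02e-06). Pmaip1, the death-promoting Noxa gene, was at 618 and 1539 in Treg and 106 and 76.6 in CD4 cells, and Myo3b, a class III myosin, at 605 and 621 in Treg and 82.8 and 80.6 in CD4 cells. Ankrd55 was at 389 and 477 in Treg and 41.1 and 52.9 in CD4 cells, a log2 difference of 3.18 (SE 0.39, adjusted p 5.41e-06). Eps8l1, with the largest log2 difference among the called higher genes of the naming rule, was at 223.9 and 150.6 in Treg and at 0.304 and 0 in CD4 cells. Cd38, Nrp1, Tigit and Havcr2 from the lists stood among the 15 lowest p-values as well.

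Among the 15 lower genes with the lowest p-values, 9 lay lower in every Treg library, at day 0 and day 6, than in each of the 26 other libraries, and 6 of the 9 are described. Ctse, the aspartic protease cathepsin E, was at 930.0 and 1067 in Treg and 17828 and 16717 in CD4 cells, a log2 difference of -4.11 (SE 0.20, adjusted p 6.26e-14). Gdpd3, a lysophospholipase, was at 17.3 and 9 in Treg and 2061 and 1769.7 in CD4 cells, a log2 difference of -7.14 (SE 0.45, adjusted p 1.62e-11). Crtam, an adhesion receptor of activated cytotoxic cells, was at 39.7 and 33 in Treg and 334 and 353 in CD4 cells, a log2 difference of -3.21 (SE 0.36, adjusted p 1.47e-06). Il1rl2, the IL-36 receptor, was at 40 and 55.2 in Treg and 764 and 708 in CD4 cells, Aqp9, a glycerol channel, at 31.8 and 29.3 in Treg and 313 and 250.4 in CD4 cells, and the phospholipid flippase Atp8b4 at 75.4 and 57.8 in Treg and 1194 and 1366 in CD4 cells. Over all genes, 164 had all 5 Treg libraries above the 26 others, 0.98% of the table, and 162 had them below, 0.968%. Of these, 56 were called higher and 39 lower at day 0, but the day 0 libraries took part in choosing them, so these counts are not read against the 2.54% and 1.34% of all genes. Among the 10 with the widest gap above under the naming rule, which leaves out predicted genes, pseudogenes and ribosomal protein genes, were Ikzf2, Lrrc32, Itgb8 and Ikzf4, and Sdc4, the heparan sulfate proteoglycan syndecan 4, at 465 and 659.6 in Treg and 102 and 89.2 in CD4 cells, which is not a call at day 0.

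Near-identical gene copies, such as those of the ribosomal protein gene Rps3a, can share reads. Rps3a1 was at 3915 and 3257 in Treg and 22414 and 20605 in CD4 cells, whereas Rps3a2 was at 11398 and 9826 in Treg and 35.7 and 27.8 in CD4 cells and Rps3a3 at 8035 and 6104 in Treg and 16 and 11 in CD4 cells. The 3 copies added up to 23348 and 19188 in Treg and 22465 and 20644 in CD4 cells. The values of single copies are uncertain. In every Treg library, at day 0 and day 6, Rps3a2 and Rps3a3 lay above and Rps3a1 below each of the 26 other libraries. In Treg-treated recipients the mean of Rps3a2 was 7042 in Treg and 59.5 in CD4 cells. The cause of this switch, and its part in other genes that set all Treg libraries apart, was not tested. Pdlim4, a cytoskeletal scaffold (chr11:54054928-54069032), was at 36.8 and 38.8 in Treg and 1660.2 and 1442 in CD4 cells, with 16.9 and 7.51 in CD8 cells.

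Genes of blood cell precursors were among the 10 largest falls. Klf1, the erythroid master factor, was at 3.97 and 3.71 in Treg and 252 and 238 in CD4 cells, with 1513 and 1660.3 in CD8 cells, a log2 difference of -5.67 (SE 0.90, adjusted p 0.000221). Car1, an erythroid carbonic anhydrase, was at 91.9 and 76.1 in Treg and 3730.2 and 3793 in CD4 cells, and Aqp1, the red cell water channel, at 1.99 and 3.71 in Treg and 175 and 137 in CD4 cells. The granule genes of neutrophil precursors Mpo, at 7.48 and 9.58 in Treg and 354 and 428 in CD4 cells, and Elane, at 0.989 and 0 in Treg and 79.8 and 102 in CD4 cells, were called lower too, and Prtn3 was listed at 0 in both Treg libraries against 46.5 and 62.6 in CD4 cells. All of these were higher still in CD8 than in CD4 cells. In the other direction the macrophage genes C1qc, at 97.1 and 12.1, and Fcna, at 60.9 and 19.3 in Treg, were listed at 0 in both CD4 libraries, and the neutrophil gene Ngp was at 106 and 75.3 in Treg and 0 and 2.51 in CD4 cells, with 64 and 103 in CD8 cells. The sums of erythroid and myeloid markers are given above, and the part of other cells in these genes was not tested. The calls of Aqp1 (0.0889), C1qc (0.25) and Fcna (0.152) were lost without Treg JL019, CD4 JL019 or CD4 JL027 (highest limma adjusted p of these fits in brackets). Ngp (0.12) lost its call without Treg JL019 or CD4 JL019. Elane (0.0632) lost its call without Treg JL027.

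**Figure D3:**
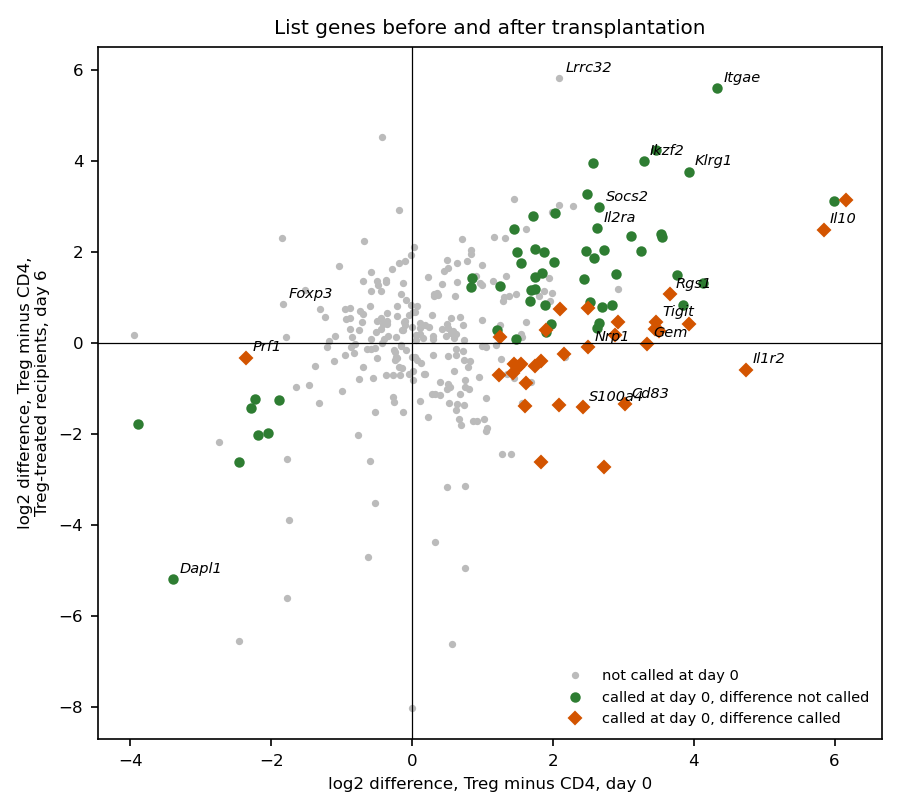
Log2 difference between Treg and CD4 cells at day 0 (horizontal axis) and in Treg-treated recipients at day 6 (vertical axis) for the genes of the 12 lists. Green circles were called at day 0 and did not have a called difference between the times. Orange diamonds were called at day 0 and had one, such as Il1r2 and Cd83, which lie below 0 at day 6.

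Of the 426 genes called higher at day 0, 165 were also called higher in Treg-treated recipients, where 2319 genes, 13.9% of all, were called higher and 2697, 16.1%, lower. Another 62 were called lower there, and 199 were not called. Of the 225 genes called lower at day 0, 113 were called lower again, 2 were called higher and 110 were not called. No library is in both comparisons, though they share the estimate of the spread. The difference between the times was called for 788 genes, 4.71% of all. Genes called higher at both times included Ikzf2, with a log2 difference of 3.29 at day 0 and 3.99 at day 6, Il2ra with 2.63 at day 0 and 2.53 at day 6, Klrg1 with 3.93 at day 0 and 3.76 at day 6, Itgae with 4.33 at day 0 and 5.60 at day 6 and Socs2 with 2.66 at day 0 and 2.99 at day 6. The difference between the times was not called for any of these 5, which does not show that they are equal. Nrp1 and Tigit, called higher at day 0 and not called at day 6, had 2.50 at day 0 and -0.086 at day 6 and 3.47 at day 0 and 0.46 at day 6, with limma adjusted p-values of 2.9e-05 and 0.000403 for the difference between the times. Cd83 went from called higher to called lower, with 3.02 at day 0 and -1.35 at day 6 (adjusted p 2.65e-05 for the difference), and so did S100a4, a calcium-binding protein of activated and motile cells, with 2.42 at day 0 and -1.41 at day 6 (adjusted p 0.000152). For Foxp3 the log2 difference was -1.84 at day 0 and 0.86 at day 6, the difference between the times having an adjusted p of 0.128. Il7r was not called at day 0 and was called higher at day 6, with -1.03 at day 0 and 1.69 at day 6 (adjusted p 0.0121).

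Promoter letters are shown for 3 called genes with a matching motif, as a view of what lies at their starts. A promoter here is the 300 bases from 250 before to 50 after a RefSeq start in GRCm38.p6, and 11718 of the 16741 genes had one. The forkhead letters GTAAACA, on either strand, were in 5% of the 300 genes called higher with a promoter, in 3.62% of the 138 called lower and in 3.33% of all 11718. The STAT letters TTCNNNGAA were in 7.67% of the called higher, 6.52% of the called lower and 8.62% of all. These shares were not tested, and a match is a description, not a binding site. Capitals mark the matches. Cish, the Stat5 target on chr9:107296409-107296708 (+ strand), has 2 STAT matches. Prdm1 on chr10:44458699-44458998 (- strand) and Il1rl1 on chr1:40439379-40439678 (+ strand) each have 1 forkhead match. Il1rl1 has 2 such promoters, and the 1 shown came first by number of matches.
Cish: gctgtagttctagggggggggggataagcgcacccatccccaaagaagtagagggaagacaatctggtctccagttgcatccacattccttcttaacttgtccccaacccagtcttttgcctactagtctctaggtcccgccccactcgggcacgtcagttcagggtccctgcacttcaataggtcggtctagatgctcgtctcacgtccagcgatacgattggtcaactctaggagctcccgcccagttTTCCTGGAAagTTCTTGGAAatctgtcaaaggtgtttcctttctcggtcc
Prdm1: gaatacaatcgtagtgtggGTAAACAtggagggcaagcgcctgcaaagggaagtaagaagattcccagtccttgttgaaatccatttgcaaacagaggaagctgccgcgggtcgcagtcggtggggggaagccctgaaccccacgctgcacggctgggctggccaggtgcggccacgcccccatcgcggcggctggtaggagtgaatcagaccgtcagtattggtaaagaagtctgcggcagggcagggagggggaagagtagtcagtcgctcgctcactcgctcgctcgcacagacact
Il1rl1: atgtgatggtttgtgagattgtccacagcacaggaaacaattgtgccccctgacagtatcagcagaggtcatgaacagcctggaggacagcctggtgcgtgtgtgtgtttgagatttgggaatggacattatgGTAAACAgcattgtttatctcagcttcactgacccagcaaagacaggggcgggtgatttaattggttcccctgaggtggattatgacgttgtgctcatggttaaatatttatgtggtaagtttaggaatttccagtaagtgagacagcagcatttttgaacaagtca

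The TCR tables list clonotypes, with their reads. A clonotype is 1 combination of V gene, J gene and CDR3, the third complementarity-determining region, read as amino acids. T cells carry an alpha (TRA) and a beta (TRB) chain, and Treg and conventional CD4 cells mostly arise from separate selection in the thymus. TRB reads numbered 12081 and 13059 in Treg and 11386 and 14476 in CD4 libraries, and TRA reads 13648 and 15457 in Treg and 18145 and 20617 in CD4 libraries. PCR reads without molecular identifiers are not independent molecules, so intervals cover counting error only. With 2 libraries against 2 an exact permutation test cannot go below p = 0.33, and none was run.

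At equal reads, both Treg libraries held fewer TRB clonotypes than both CD4 libraries. Equal reads do not mean equal numbers of cells or molecules, so lower diversity and lower input cannot be told apart. At 11386 reads, the lowest total of the 6, the expected number was 7876 and 8382 in Treg, 9259 and 9329 in CD4 and 8971 and 9296 in CD8 cells. Clonality, 1 minus the normalised Shannon entropy, was 0.0202 and 0.0178 in Treg and 0.0102 and 0.0114 in CD4 cells. The largest TRB clonotype held 0.24% and 0.161% of Treg reads. Among clonotypes of at least 2 reads, at their own lowest total, the order turned, with a mean of 1880.04 in Treg and 1702 in CD4 libraries. For TRA the number at 13648 reads was 4332 and 5160 in Treg and 6039 and 6476 in CD4 cells. TRA clonality was 0.0601 and 0.0585 in Treg against 0.0612 and 0.0607 in CD4 cells.

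Sharing of TRB clonotypes between Treg and CD4 cells overlapped in range with the sharing within a population through 1 pair only. Treg and CD4 libraries of prefix JL019 shared 362 TRB clonotypes, 4.4% of the Treg and 3.91% of the CD4 clonotypes, with a Morisita-Horn index of 0.0864, an overlap weighted by abundance that runs from 0 to 1. For prefix JL027 the number was 525, 5.63% and 4.61%, with an index of 0.0901. Across prefixes the index was 0.0809 for Treg JL019 with CD4 JL027 and 0.127 for Treg JL027 with CD4 JL019, which shared 776 clonotypes. The largest of these 4 indices was thus between different prefixes. That pair stood in neighbouring wells, and the part of well position was not tested. The 2 Treg libraries had an index of 0.144 with 826 shared clonotypes, the 2 CD4 libraries 0.105 with 650, and the 2 CD8 libraries 0.123 with 715. Among the Treg and CD4 pairs, only Treg JL027 with CD4 JL019 reached this range, and the others lay below it. Treg with CD8 cells, a different lineage, had 0.0509 to 0.0661. Pooled over both libraries, 1569 TRB clonotypes were in Treg and CD4 cells, 9.37% of 16738 in Treg and 7.85% of 19994 in CD4 cells, and 5.72% of those in Treg were also in CD8 cells. All 6 libraries shared 18 TRB clonotypes.

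**Figure D4:**
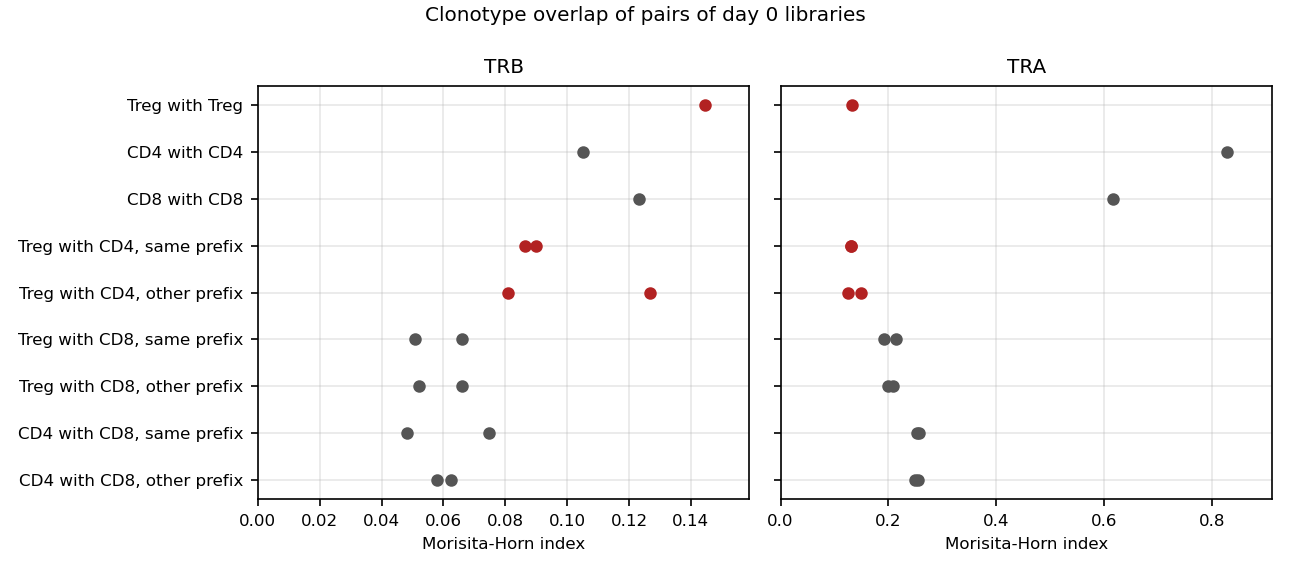
Morisita-Horn overlap (horizontal axis, with its own scale for each chain) of pairs of day 0 libraries for TRB on the left and TRA on the right, each point being 1 pair. Red marks pairs of Treg with Treg or CD4 libraries and grey all others. TRB pairs lie between 0.0483 and 0.144, and the TRA pair of the CD4 libraries lies at 0.828.

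For TRA the pairs were ordered otherwise. Treg with CD4 libraries had indices of 0.125 to 0.149, below Treg with CD8 libraries, at 0.192 to 0.215. Without weighting by abundance the order was the other way, with shared clonotypes over the union (Jaccard) of 0.0475 to 0.0574 for Treg with CD4 and 0.0369 to 0.0462 for Treg with CD8 libraries. The 2 Treg libraries reached 0.132, while the 2 CD4 libraries reached 0.828 and the 2 CD8 libraries 0.616. A V and J pair of a known T cell lineage is given by itself. TRAV11 joined to TRAJ18, the alpha chain of invariant natural killer T cells, made up 3.52% (95% Wilson interval 3.26% to 3.79%) and 3.44% (3.2% to 3.7%) of CD4 reads, and 0.176% (0.118% to 0.262%) and 0.104% (0.0637% to 0.168%) of Treg reads. CD8 libraries had 0.366% and 0.346%. In the RNA, Zbtb16, the transcription factor of such cells, was at 9.51 and 4.2 in Treg and 99.8 and 93.9 in CD4 cells, a log2 difference of -3.73 (SE 1.11, adjusted p 0.0575), a gene looked up after the chain was seen. Without all TRAV11-TRAJ18 clonotypes, an alternative chosen after seeing the data, the TRA index was 0.195 to 0.231 for Treg with CD4, 0.131 for the 2 Treg and 0.41 for the 2 CD4 libraries. Treg with CD8 libraries then had 0.19 to 0.213, within which range 3 of the 4 Treg and CD4 pairs lay, so the lower overlap of Treg with CD4 than with CD8 libraries did not hold without these clonotypes.

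The same TRB V gene led in Treg, CD4 and CD8 libraries. TRBV16 was the leading gene, with 40.9% and 43.2% of reads in Treg and 39.6% and 39.4% in CD4 cells. In CD8 cells it had 50.8% and 51.9%. The part of PCR amplification in the V gene shares was not tested. TRBV3 was at 4.78% and 5.21% of reads in Treg and 3.3% and 3.15% in CD4 cells, and TRBV29 at 2.96% and 3.14% of reads in Treg and 2.37% and 2.09% in CD4 cells. TRBV31 was at 15.9% and 14.1% of reads in Treg and 16.9% and 16.9% in CD4 cells, and TRBV4 at 9.3% and 8.39% of reads in Treg and 10.7% and 10.4% in CD4 cells. For these 5 genes the Treg and CD4 libraries did not overlap by reads. By clonotypes TRBV16 did, at 29.9% and 32.9% in Treg and 33.3% and 32.3% in CD4 cells, while the 4 others did not. Of 20 TRB V genes with at least 0.5% of reads in some library, 7 were higher and 7 lower in both Treg than in both CD4 libraries, and 6 of each were so by clonotypes as well. CD8 libraries had 4.15% and 3.29% of TRBV31. Among TRA V genes TRAV11 was at 0.821% and 0.634% of reads in Treg and 4.02% and 4.1% in CD4 cells, and TRAV8D-2, at 26.2% and 26.3% in CD8 cells, at 15.3% and 15.8% of reads in Treg and 13.5% and 14.1% in CD4 cells, though by clonotypes TRAV8D-2 overlapped, at 9% and 9.38% in Treg and 9.4% and 9.35% in CD4 cells. Of 19 TRA V genes 6 were higher and 4 lower without overlap. Among J genes TRBJ2-7 was at 20.1% and 19.9% of reads in Treg and 18.4% and 18.3% in CD4 cells and TRBJ2-5 at 13.9% and 13.4% of reads in Treg and 14.8% and 14.6% in CD4 cells, and of 12 TRB J genes 2 were higher and 2 lower. TRAJ18, the J gene of the invariant chain, was at 3.09% and 2.6% of reads in Treg and 6.21% and 6.1% in CD4 cells. Of 43 TRA J genes 18 were higher and 9 lower by reads, and 8 of each were so by clonotypes as well.

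**Figure D5:**
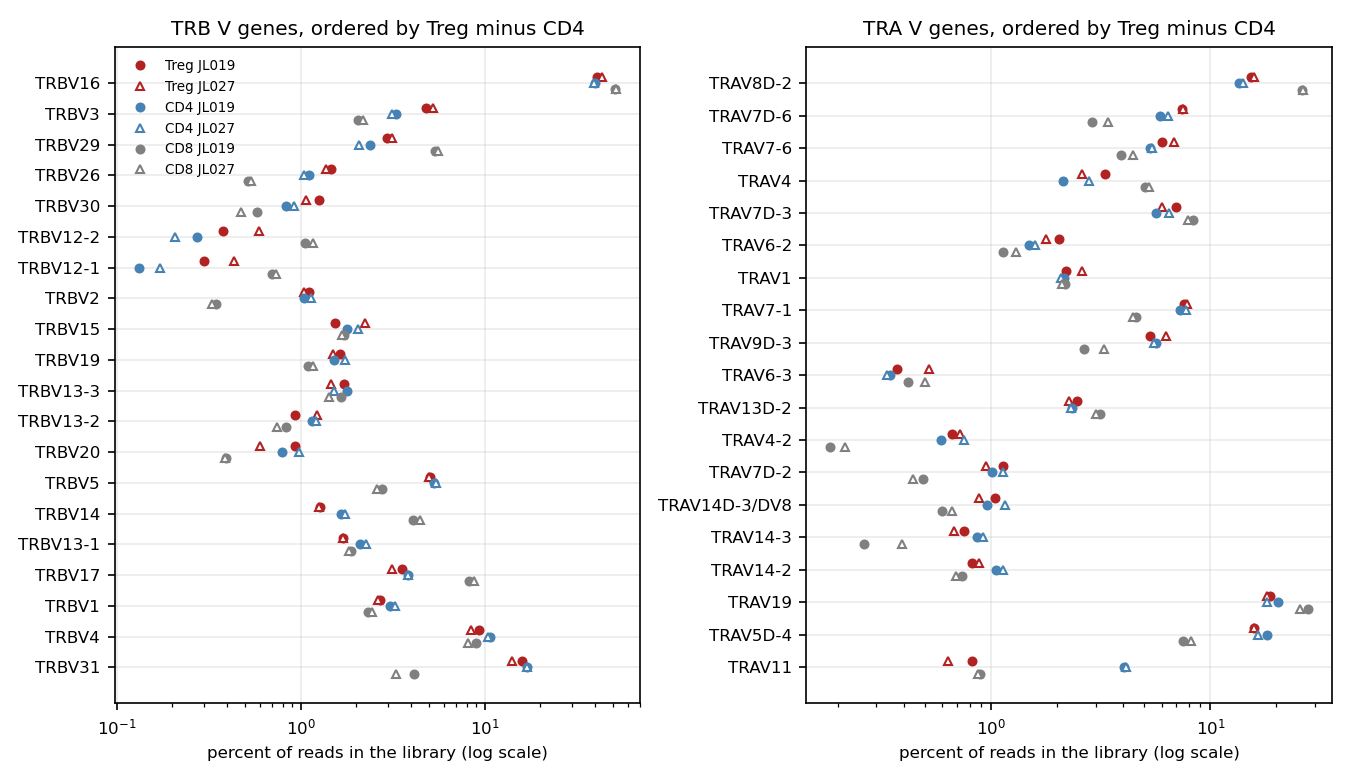
Percent of reads (horizontal axis, log scale) of each V gene with at least 0.5% of reads in some day 0 library, TRB on the left and TRA on the right, ordered by Treg minus CD4. Points are single libraries. TRBV3 lies at 4.78% and 5.21% in Treg against 3.3% and 3.15% in CD4 cells, and TRAV11 at 0.821% and 0.634% against 4.02% and 4.1%.

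Mean TRB CDR3 length over reads was 13.7 in both Treg and 13.8 in both CD4 libraries, against 14 in both CD8 libraries. Mean TRA length was 13.3 in both Treg and 13.4 in both CD4 libraries. Hydrophobic residues at both CDR3 positions 6 and 7, counted from the first residue, a feature linked to self-reactive chains, were in 1.88% and 2.13% of Treg, 1.88% and 1.67% of CD4 and 2.67% and 2.4% of CD8 TRB clonotypes. At 1 or both positions the shares were 32.7% and 33% in Treg, 30.8% and 31.3% in CD4 and 35.5% and 35.3% in CD8 cells.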

How the data were processed

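Sorted T cell libraries were made with SMARTer v4 and Nextera XT, and TCR chains were amplified by nested PCR from the same cDNA, per the labels' protocols. The RNA table holds normalised signal per gene, gene counts scaled between 31 libraries by the authors. The submitters' processing notes name kallisto, DESeq2, FastQC 0.11.7 and the build GRCm38 (mm10), without roles or order. The deposited log2 fold change, score and p-value columns belong to an unnamed contrast and were not used. The TCR tables hold read counts per productive clonotype and percent of the library, as deposited by the authors.

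The 16741 genes with a mean value of at least 1 were tested on log2(value + 1) with limma 3.58.1 in R 4.3.3 (trend and robust options, Benjamini-Hochberg adjustment over all genes, calls at an adjusted p under 0.05), with all 31 libraries sharing the spread and no block. This scale understates the change of low genes. The script was checked on simulated data. TCR values, promoters and figures used Python 3.11.15 (matplotlib 3.10.9, scipy 1.17.1, pandas 2.3.3, numpy 2.4.6). Gene positions and promoters are RefSeq's for GRCm38.p6. Wilson intervals are at 95%. TRB reads per day 0 library ranged from 11386 to 21858.

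Members and gene lists were chosen with earlier results of these data known. Named are 23 set Treg genes, up to 6 called members of each list per direction, the 15 lowest p-values and 10 largest changes in each direction, and the 10 widest gaps between all Treg and all other libraries, without predicted, receptor segment, mitochondrial and ribosomal protein genes in these last parts. Not all of them are named, 1 of the set genes is not reported here, and genes outside the rule, such as the immediate early genes, Zbtb16, Rps3a copies and markers, were chosen after their values were seen. Alternatives were the pseudocount, low-value filters, the libraries in the model, the prefix as a block, scaling, array weights, leaving out each library and TCR definitions.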

Additional observations from a re-analysis of the deposited data

Results flagged for a closer look

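For 44 of the 139 genes named, the log2 difference between Treg and CD4 cells was not the same at day 6 as at day 0 by limma's test of the difference, at an adjusted p under 0.05, beside 4.71% of all genes. Values are the day 6 difference minus the day 0 difference on the log2 scale, and a negative value means that Treg stood lower against CD4 cells at day 6. The named genes were chosen partly for their day 0 values, so their count is not read against the background.

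Among receptors, factors and cytokines of Treg the change was -2.59 for Nrp1, -3.01 for Tigit, -3.14 for Havcr2, -2.46 for Lag3, -1.35 for Cd38, -3.36 for Il10, -5.33 for Il1r2, -1.63 for Hopx, -1.73 for Maf, -1.94 for Batf and -2.70 for Bhlhe40. Lag3 and Havcr2 had day 6 differences of 0.46 and 0.30. Among activation and signalling genes it was -3.36 for Gem, -2.49 for Bcl2a1b, -2.98 for Bcl2a1d, -3.23 for Nr4a2, -2.58 for Rgs1, -3.52 for Rgs16, -1.92 for Ptger2, -2.47 for Pmaip1, -4.37 for Cd83, -3.84 for S100a4, -3.02 for Ccr3 and -1.51 for Myo3b. The genes called higher at day 0 and lower at day 6 were Batf, Bcl2a1b, Bcl2a1d, Ccl3, Ccl4, Cd83, Ngp, Nusap1, S100a4 and Top2a. Among helper cytokines and chemokines it was -4.08 for Il2, -7.18 for Il21, -3.71 for Ifng, -5.44 for Ccl3 and -4.45 for Ccl4, and all 5 were called lower in Treg at day 6. Among cell cycle and metabolic genes it was -1.91 for Top2a, -2.09 for Nusap1, -2.01 for Bub1, -2.41 for Hk2 and -2.26 for Fabp5. Genes of other blood cells gave 5.07 for Klf1, 4.80 for Car1, 6.37 for Aqp1, -10.07 for Ngp, -5.62 for C1qc, -5.72 for Fcna and -5.52 for Cd14, with no part in these tested. The others were 2.14 for Atp8b4, -0.91 for Ctse, 2.03 for Prf1 and 2.72 for Il7r.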

How the results depend on the processing

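The number of genes called between Treg and CD4 cells at day 0, 651, moved more with the libraries and the model than with the scaling. The number was 2081 (number called higher in Treg at day 0, 962, number called lower in Treg at day 0, 1119) from the 4 libraries only, 1599 (709 and 890) from the 6 day 0 libraries, so that more genes were lower than higher in both, and 2622 (1434 and 1188) with array weights. Quantile normalisation gave 831 with 368 lower. With 1 of the 4 libraries left out, the count lay between 261 and 302, with 177 to 202 higher and 81 to 123 lower. The lone library is then assumed to vary like the other groups, and its fit has fewer samples. With 1 syngeneic CD4 library left out, chosen after seeing the data, it was 987, with 392 lower. The prefix as a replicate block gave 676 over all 31 libraries and 1365 (668 and 697) over the 4. The deviations of same-prefix Treg and CD4 libraries correlated at -0.207, those of Treg and CD8 at 0.442 and of CD4 and CD8 at -0.319, so the prefix was not taken as a pairing, and crossed prefixes as a block, also added, gave 3425 (1715 and 1710). Of the 139 named genes the block over the 4 libraries ended 6 calls and gave 13 new ones. Elsewhere the cause of such changes was not tested.

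No named gene that was called changed sign. Signs turned for genes not called. With median centring Cd28 was at -0.065 and Tgfb1 at -0.052, and with quantile normalisation Cd8a at -0.33. With 1 library left out, the log2 difference ranged from -0.17 to 0.18 for Cd28, from -0.35 to 0.39 for Tgfb1, from -0.33 to 0.70 for Cd8a, from -0.40 to 0.074 for Stat5b and from -1.95 to 0.13 for Pax5. Ifng was called higher without Treg JL019, adjusted p 0.0266.

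The Morisita-Horn overlap of Treg and CD4 libraries averaged 0.0960 in TRB. It was 0.134 in TRA, 0.207 in TRA without TRAV11-TRAJ18 clonotypes, 0.144 by CDR3 only and 0.0288 as shared clonotypes over the union (Jaccard). The clonotype number at the lowest day 0 total, Treg day 0, averaged 8129 in TRB, 4746 in TRA and 1880.04 for clonotypes of at least 2 reads. For the clonotype number at the lowest day 0 total, CD4 day 0, these were 9294, 6257 and 1702, and 9042 by CDR3 only. Clonality, Treg day 0, was 0.0190 in TRB, 0.0593 in TRA and 0.0135 for at least 2 reads. Clonality, CD4 day 0, was 0.0108, 0.0610 and 0.00774, and 0.0124 by CDR3 only.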

Other observations

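TRB clonotypes with more reads in a Treg library were found more often in CD4 libraries. In Treg JL019, 5.99% of clonotypes with 1 read, 13.3% of those with 2 to 4 and 31.8% of those with 5 or more reads were also in a CD4 library. In Treg JL027 the shares were 8.43%, 21.6% and 53%. The same sizes were found in the other Treg library at 6.71%, 17.7% and 37.9% for JL019 and at 8.08%, 10.3% and 24.6% for JL027. Read number and sharing both depend on sequencing depth, and its part was not tested.

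TRB clonotypes shared by Treg and CD4 libraries of the same prefix were shorter than the other Treg clonotypes, at a mean of 13.2 against 13.8 residues in JL019 and 13.3 against 13.8 in JL027. The 6 day 0 libraries stand next to one another in the authors' well column in the order Treg JL019, Treg JL027, CD4 JL019, CD4 JL027, CD8 JL019 and CD8 JL027. Neighbouring libraries shared 826, 776, 650, 439 and 715 TRB clonotypes, and the other pairs 259 to 533. For 3 of these 5 neighbours position and cell population cannot be told apart. The pair of Treg JL027 with CD4 JL019 joins different populations and prefixes and shared 776, more than any other Treg and CD4 pair. The part of well position was not tested.

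The alpha chain of mucosal-associated invariant T cells, TRAV1 joined to TRAJ33, made up 0.0293% and 0.149% of Treg and 0.16% and 0.223% of CD4 reads. Y-linked Ddx3y set Treg JL027 apart from the 5 other day 0 libraries, at 2498 against 0.717 to 12.7, and its part in the differences between the 2 Treg libraries was not tested.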
